A study of Homo sapiens with 24 samples.

Results

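The 8 mock-transfected libraries of a TGIRT-seq study in SKOV3.ip1 cells were compared with each other. They are 8 of the 24 libraries of the series and were chosen by their labels, which give 4 mock sets of 2 libraries each. SKOV3.ip1 cells derive from SKOV-3, an established line of human ovarian cancer. In TGIRT-seq, RNA that was depleted of ribosomal RNA and fragmented is copied by a heat-stable group II intron enzyme that reads through tightly folded small RNAs as well as messenger RNAs. The mock cultures received Lipofectamine 2000, the lipid reagent used for transfection, with no siRNA, so they were reagent-treated and not strictly untreated, and were harvested for RNA at 72 h. The n4/n5 set served as control for RBFOX2 depletion. The oct set served for both hnRNPC siRNAs and hnRNPM siRNA_1, the nov set for SRSF1 siRNA_1, and the jan set for hnRNPM siRNA_3 and SRSF1 siRNA_3. The 16 other libraries received 100 nM siRNA against those proteins. All cultures came from the same line at passages 28 to 40, with no passage given for a single library, and the labels do not say what step the month-like set names refer to. The series calls its libraries biological replicates, so p-values measure the spread between such replicates.

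Genes differ in how far their RNA level moves between cultures of a single cell line. Stress, inflammatory and hypoxia-responsive genes have promoters that answer to medium, density and handling, whereas many housekeeping genes hold a steady level. Small structured RNAs add a further kind of variation. The small nucleolar RNAs (snoRNAs) guide chemical modification of ribosomal RNA, the C/D box class guiding methylation and the H/ACA class pseudouridylation, and most are cut from introns of host genes. The small nuclear RNAs U1 to U6 form the spliceosome. The measured level of such RNAs depends on the amount in the cell and on how well the library preparation captures them.

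The deposited values were TPM, which are relative to each library's total, so sequencing depth is unknown and no counting error can be given. Small structured RNAs took 78.6% and 77% of the TPM in the n4/n5 libraries, 75% and 74.6% in oct, 81% and 72.4% in nov, and 64.7% and 67.4% in jan. Values were therefore scaled by median-ratio factors, and differences below are of log2(scaled TPM + 1), which understates the change of weakly expressed genes. Of 57773 genes, 16994 reached 1 TPM in at least 2 libraries and were tested. Epithelial and ovarian carcinoma markers were present in every mock library. ERBB2, the amplified receptor gene for which SKOV-3 is known, had 547 and 612 scaled TPM in n4/n5, 560 and 442 in oct, 379 and 422 in nov, and 407 and 438 in jan. Of the 12 markers of this list in the table, MUC16 and WT1 stayed under 1 scaled TPM in all 8 libraries. The 12 leukocyte markers summed to between 0.158 and 0.297 scaled TPM, with CD3D, MS4A1 and TYROBP listed at 0 in all 8, and the 10 fibroblast markers summed to between 0.361 and 0.932. All 13 mitochondrial messenger RNAs, which every cell uses, were listed at 0 in all 24 libraries, so a 0 in this table can be a value that was not estimated. Of 7 endothelial markers, EGFL7 alone was tested, at 5.36 to 10.5 scaled TPM, while CDH5 was listed at 0 in 7 of the 8 libraries.

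Libraries of a set were on average nearer to each other than libraries of different sets, but the difference did not pass an exact permutation test. The distance between libraries was the median absolute log2 difference over the tested genes. It averaged 0.144 over the 4 within-set pairs and 0.175 over the 24 pairs from different sets. The exact permutation test over all ways to split 8 libraries into 4 pairs gave a one-sided p of 0.0667. The smallest p it allows is 0.00952, so the number of splits did not prevent a lower p. The within-set distances were 0.152 for n4/n5, 0.17 for oct, 0.146 for nov and 0.11 for jan. The oct libraries stood farther from each other than oct 3 stood from nov 1, at 0.13, or from jan 2, at 0.141. The within-set mean was 0.136 without either oct library and 0.142 without either n4/n5 library. It was 0.144 without either nov library and 0.156 without either jan library. Leaving out a library drops the pair of its set from the mean, and the oct pair was the widest and the jan pair the closest. The p of the test fell without either oct library and rose without either jan library. The outcome of the test thus depended on single libraries.

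**Figure D1:**
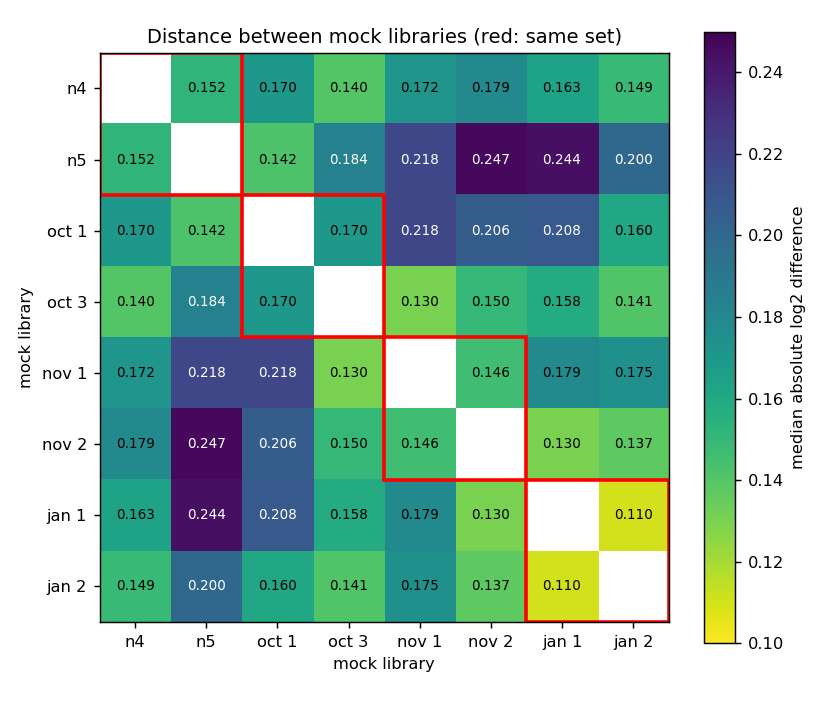
Distance between each pair of mock libraries, as the median absolute log2 difference over 16994 tested genes. Both axes list the 8 libraries by set and replicate number, and red squares enclose the 4 within-set pairs. The jan libraries were the closest pair, at 0.11, and n5 against nov 2 the farthest, at 0.247.

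Of the 16994 genes tested, 939 differed over the 4 sets by the F test of limma at an adjusted p under 0.05, or 5.53%. The n4/n5 set was the one farthest from the mean of the others in 557 of them, or 59.3%, against 29.9% of all tested genes. In 244 of the 557 it lay above the others and in 313 below. The oct set was farthest in 50, nov in 179 and jan in 153. Among pairs of sets, n4/n5 against oct gave 188 called genes (1.11%), 106 higher (0.624%) and 82 lower (0.483%) in n4/n5. The n4/n5 set differed from nov in 1320 genes (7.77%), 483 higher (2.84%) and 837 lower (4.93%), and from jan in 986 (5.8%), 520 higher (3.06%) and 466 lower (2.74%). Limma called 0 genes (0%) for oct against nov, where 2295 had an unadjusted p under 0.05, and other settings called between 0 and 27, or 3173 with replicate number as a block. For oct against jan it called 3 (0.0177%), 1 higher (0.00588%) and 2 lower (0.0118%) in oct, and for nov against jan 45 (0.265%), 20 higher (0.118%) and 25 lower (0.147%) in nov. Both n4/n5 libraries lay above the 6 others in 7.28% of tested genes and below them in 7.9%. The same shares were 2.49% and 2.51% for oct, 9.3% and 5.18% for nov, and 4.91% and 8.66% for jan. The counts rest on few libraries. Fitted on the 8 mock libraries alone, with 4 residual degrees of freedom, the F test called 24 genes, and without n4/n5 replicate 5 it called 181, without jan replicate 1 it called 394, without jan replicate 2 it called 441 and without n4/n5 replicate 4 it called 614. On the TPM as deposited, where the n4/n5 minus jan difference of the median gene shifted by -0.56 on the log2 scale, the F test called 9756, and without a filter on low values 574. A set left with 1 library was taken to vary like the other groups. In bulk RNA, fewer cells of a kind and less RNA per cell cannot be told apart.

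**Figure D2:**
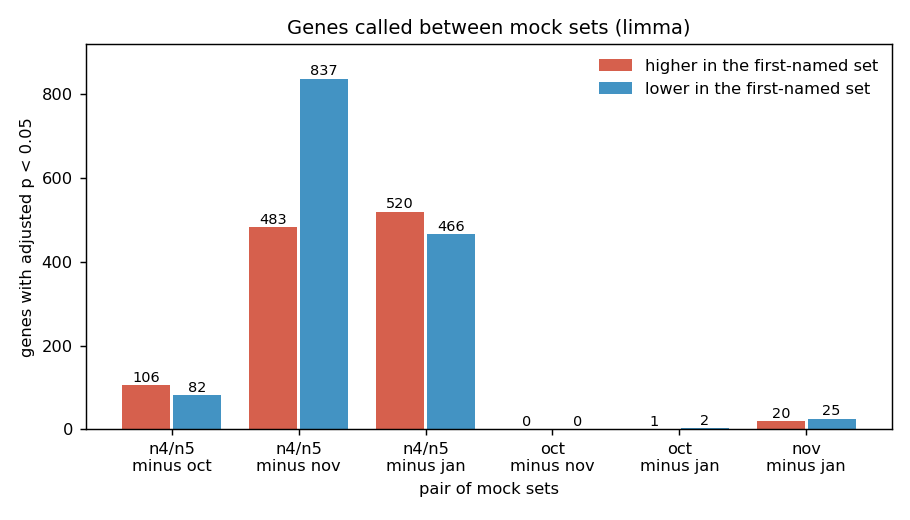
Number of genes called by limma (adjusted p under 0.05) for each pair of mock sets, out of 16994 tested. Red bars count genes higher and blue bars genes lower in the first-named set; the 3 pairs with n4/n5 gave 188, 1320 and 986 genes and the 3 pairs without it 0, 3 and 45.

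The genes of the NF-kB and inflammatory list were the group with the highest share of called members among pathway lists. NF-kB is a transcription factor that cytokines and stress release from its inhibitor, and it switches on chemokines, cytokines, survival genes and its own inhibitors. Of 20 tested members 11 differed by the F test (55%, against 5.53% of all genes). Lower in n4/n5 were 8 members against oct (0.483% of all genes), 10 against nov (4.93%) and 13 against jan (2.74%), and 0 members were called higher in any of the 3 pairs. The median differences over the list were -0.59, -0.65 and -0.70, against -0.01, -0.03 and -0.00 over all genes. Lists were chosen with earlier results of these data known, so these counts are a description.

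The regulatory sequences of 4 members that were lower in n4/n5 are shown here because they carry letters of the kind NF-kB binds. They are the 250 bases before the transcription start in RefSeq (GRCh38.p14), with GGNNNTTCC on either strand in capitals. IL1A is added as a member with no match in this window. CXCL8, listed in the table under its older symbol IL8, lies at chr4:73740319-73740568, plus strand. CXCL1 lies at chr4:73869143-73869392, plus strand, TNFAIP3 at chr6:137867009-137867258, plus strand, BIRC3 at chr11:102317234-102317483, plus strand, and IL1A at chr2:112784494-112784743, minus strand.
CXCL8: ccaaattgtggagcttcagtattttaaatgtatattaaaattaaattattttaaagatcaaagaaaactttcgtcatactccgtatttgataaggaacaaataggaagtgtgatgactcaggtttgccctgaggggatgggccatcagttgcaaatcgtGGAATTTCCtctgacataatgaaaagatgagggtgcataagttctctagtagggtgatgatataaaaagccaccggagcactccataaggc
CXCL1: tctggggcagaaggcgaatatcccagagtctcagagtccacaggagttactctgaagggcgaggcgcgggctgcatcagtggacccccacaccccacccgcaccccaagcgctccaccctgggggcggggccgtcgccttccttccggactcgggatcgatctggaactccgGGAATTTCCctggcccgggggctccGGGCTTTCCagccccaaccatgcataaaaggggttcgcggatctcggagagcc
TNFAIP3: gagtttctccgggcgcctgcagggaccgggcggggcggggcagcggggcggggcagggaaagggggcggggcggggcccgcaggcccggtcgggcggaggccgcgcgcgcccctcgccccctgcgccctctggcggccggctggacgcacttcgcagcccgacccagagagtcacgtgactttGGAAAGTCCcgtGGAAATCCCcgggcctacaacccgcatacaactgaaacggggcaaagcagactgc
BIRC3: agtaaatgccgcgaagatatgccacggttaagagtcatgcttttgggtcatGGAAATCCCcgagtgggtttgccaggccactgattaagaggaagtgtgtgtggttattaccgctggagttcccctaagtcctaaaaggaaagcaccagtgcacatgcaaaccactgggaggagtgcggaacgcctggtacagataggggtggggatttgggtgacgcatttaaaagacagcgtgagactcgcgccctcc
IL1A: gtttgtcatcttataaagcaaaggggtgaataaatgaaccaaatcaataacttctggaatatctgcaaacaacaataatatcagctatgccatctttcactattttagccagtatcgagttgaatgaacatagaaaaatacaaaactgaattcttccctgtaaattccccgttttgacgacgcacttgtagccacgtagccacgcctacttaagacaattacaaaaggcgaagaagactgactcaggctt
The match in CXCL8 began 91 bases before the start, those in CXCL1 at 78 and 53, those in TNFAIP3 at 67 and 55, and that in BIRC3 at 199. Of the 20 tested members 17 had a promoter in the RefSeq table, and 14 of these held the motif in at least 1 listed start. Among all 35116 RefSeq promoters, 6012 held it, or 17.1%, and 5512 of the 27305 genes listed there held it in at least 1 start, or 20.2%. The list was made of known NF-kB targets, so its share follows from the choice of members and is no result of these libraries. A match is a run of letters and was not tested as a binding site.

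Among the chemokines, which draw neutrophils and other leukocytes, IL8 had 4.45 and 3.6 scaled TPM in n4/n5, 10.4 and 23.2 in oct, 21.2 and 19.6 in nov, and 24.6 and 23 in jan. Both n4/n5 libraries lay below the 6 others, and oct replicate 1 was the lowest of those 6. The difference of n4/n5 was -1.73 ± 0.34 (SE) against oct, -2.10 ± 0.34 against nov and -2.31 ± 0.34 against jan on the log2 scale, with limma adjusted p of 0.0234, 0.00211 and 0.00177. CXCL1 had 13.1 and 9.34 scaled TPM in n4/n5, 25.3 and 47 in oct, 38.6 and 38 in nov, and 53.3 and 37.8 in jan. It was called lower against nov and jan, and the adjusted p against oct was 0.0566. CXCL2 was lower in n4/n5 in all 3 pairs, by -1.09, -1.61 and -1.56 against oct, nov and jan, and CXCL3 against nov and jan, by -0.98 and -0.68.

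The cytokine gene IL1A had 9.46 and 7.18 scaled TPM in n4/n5, 17.5 and 29 in oct, 34.1 and 33.5 in nov, and 43.3 and 35.7 in jan. Its differences for n4/n5 were -1.35, -1.91 and -2.12, each ± 0.23 (SE), with limma adjusted p of 0.00905, 0.000307 and 0.000288. IL6 was called lower in n4/n5 against nov and jan, by -1.38 and -1.95, and its adjusted p against oct was 0.107. Complement component C3 was lower in n4/n5 against oct and jan by -1.503 and -1.48, with a nov level of 17.5 and 25.2 scaled TPM near the 14 and 14.4 of n4/n5.

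SOD2, the mitochondrial superoxide dismutase and a strongly induced NF-kB target, had 25.6 and 22 scaled TPM in n4/n5, 70.9 and 76 in oct, 49.4 and 66.9 in nov, and 72.2 and 75.7 in jan. Both n4/n5 libraries lay below the 6 others, and the differences of -1.59, -1.24 and -1.60 (each ± 0.15 SE) passed the limma test with adjusted p of 0.000194, 0.00037 and 0.000134. BIRC3, an inhibitor of cell death, had 1.3 and 1.15 scaled TPM in n4/n5, 4.66 and 5.57 in oct, 2.54 and 3.99 in nov, and 4.22 and 4.61 in jan. It was lower in n4/n5 in all 3 pairs, by -1.46, -0.92 and -1.28. The feedback inhibitors were lower in n4/n5 in all 3 pairs as well. TNFAIP3, the deubiquitinase A20, had 0.978 and 0.908 scaled TPM in n4/n5, 2.13 and 2.33 in oct, 2.79 and 2.61 in nov, and 3.52 and 3.12 in jan. NFKBIA, the inhibitor that holds NF-kB in the cytoplasm, had 21.1 and 21.8 in n4/n5, 34.4 and 39.3 in oct, 34.7 and 31.8 in nov, and 35.2 and 36.3 in jan.

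Not all members were called, although 19 of the 20 had a difference below 0 in each of the 3 pairs with n4/n5. The subunit genes NFKB1 and RELB passed in none of the 3 pairs, and NFKB2 and the cytokine gene IL1B were called lower in n4/n5 against jan alone, by -0.52 and -0.50. The targets ICAM1, TNFAIP2, LIF and LCN2 were not called in any pair. LCN2, an iron-binding acute-phase protein, had 74.5 and 106 scaled TPM in n4/n5, 118 and 87.6 in oct, 108 and 119 in nov, and 91.7 and 114 in jan. Its n4/n5 libraries overlapped with those of oct and jan and lay below those of nov. Over the sets without n4/n5, 0 members were called in any pair by limma. Leaving out each library in turn left between 7 and 11 members called by the F test, the fewest without n4/n5 replicate 5. The 8 members lower in n4/n5 than in oct became 5 without n4/n5 replicate 4 and 4 without n4/n5 replicate 5 or oct replicate 3. On the 8 mock libraries alone 3 were called, and the number lower in n4/n5 was then 1 against oct, 5 against nov and 8 against jan. No setting tried gave a member higher in n4/n5 by the test.

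**Figure D3:**
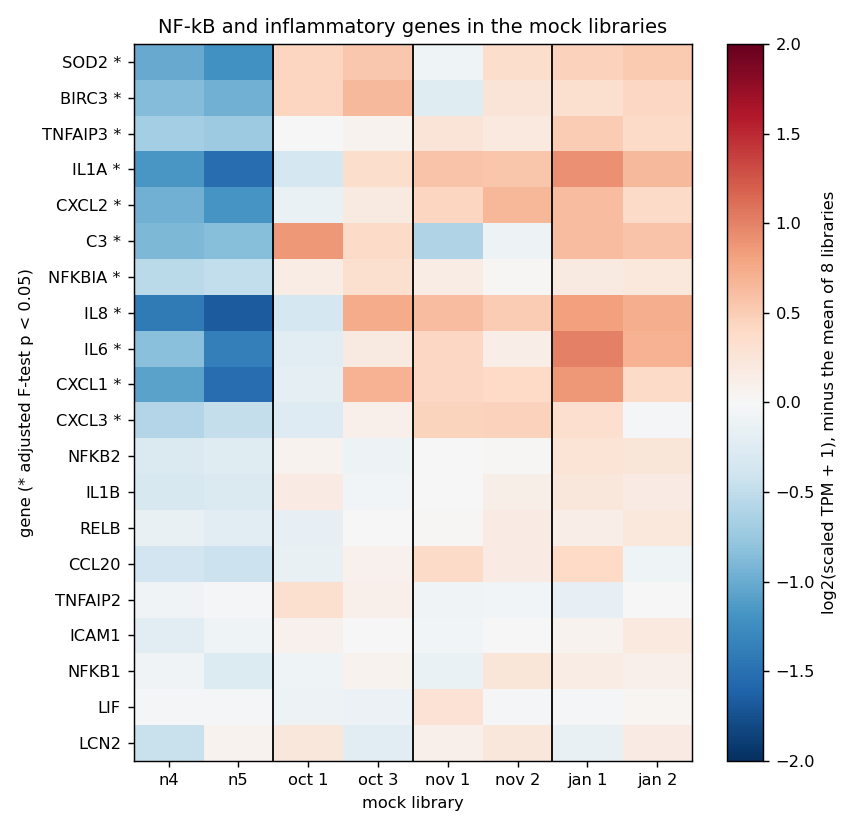
Level of the 20 tested NF-kB and inflammatory genes in each mock library, as log2(scaled TPM + 1) minus the gene's mean over 8 libraries (blue lower, red higher). Genes run from the smallest F-test p at the top, and a star marks the 11 with an adjusted p under 0.05; the n4 and n5 columns are blue for all 11.

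Among the genes with the largest differences, several of varied function were higher in n4/n5. HLA-DMB, which helps load peptides on class II molecules, had 10.8 and 12.8 scaled TPM in n4/n5, 2.8 and 2.22 in oct, 3.11 and 2.27 in nov, and 3.88 and 3.02 in jan. Its differences were 1.86, 1.80 and 1.52 (each ± 0.19 SE), with limma adjusted p of 0.0002, 0.000119 and 0.000626. SPARC, a secreted matricellular glycoprotein, had 30.4 and 27.6 scaled TPM in n4/n5, 8.54 and 10.1 in oct, 8.34 and 7.81 in nov, and 11.2 and 7.98 in jan, with differences of 1.54, 1.72 and 1.51. In both genes the n4/n5 libraries lay above all others and the 3 other sets were within a narrow range.

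RIMS4, a protein of the exocytosis machinery, was also higher in n4/n5 than in each other set. It had 14 and 16.9 scaled TPM in n4/n5 against 5.57 to 7.07 in the 6 others. ASRGL1, an asparaginase, had 33.1 and 31.4 in n4/n5 against 16 to 18.8 scaled TPM. TAGLN, the actin-binding protein transgelin, was higher against oct and nov, by 1.498 and 1.06, and the adjusted p against jan was 0.0651. HSPB1, a small heat shock protein, was higher against nov and jan, by 1.45 and 1.17, but its oct libraries were split at 17.3 and 8.4 scaled TPM. KRT19, a keratin of simple epithelia, was higher in n4/n5 in all 3 pairs, by 0.63, 0.47 and 0.58.

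Some genes were graded over the sets rather than set apart in n4/n5. TPM2, the beta-tropomyosin gene, had 45.4 and 42.8 scaled TPM in n4/n5, 26.8 and 23.9 in oct, 15.1 and 17.1 in nov, and 30.7 and 27.2 in jan. It was lower in nov than in jan, with a nov minus jan difference of -0.81 ± 0.11 (SE, limma adjusted p = 0.00833), and neighbouring levels of oct and jan were not called different. PPP1R1B, the phosphatase regulator DARPP-32, had 140 and 142 scaled TPM in n4/n5, 115 and 106 in oct, 84.3 and 86.2 in nov, and 72.4 and 71.9 in jan. Its oct minus jan difference of 0.61 ± 0.09 (SE, limma adjusted p = 0.0302) made it the single gene called higher in oct in that pair. The 2 genes called lower in oct than in jan were ANKRD36B, by -0.50, and the pseudogene RPS20P20, by -0.95. Both have near-identical copies, so their reads may be split between copies. RPS20P20 was named after its values were seen.

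CP, the copper-carrying ferroxidase ceruloplasmin, was highest in jan. It had 13.8 and 12.3 scaled TPM in n4/n5, 17.9 and 18.2 in oct, 13 and 15.9 in nov, and 26.8 and 26.6 in jan, with a nov minus jan difference of -0.85 ± 0.11 (SE, limma adjusted p = 0.0068). IGFBP3, which binds insulin-like growth factors, had 76.2 and 86 scaled TPM in n4/n5, 135 and 139 in oct, 158 and 151 in nov, and 111 and 124 in jan. It was lower in n4/n5 in all 3 pairs, by -0.75, -0.92 and -0.53.

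The hypoxia and glycolysis list had 8 of 27 tested members called by the F test (29.6%, against 5.53% of all genes). The mitophagy receptors BNIP3 and BNIP3L, the glycolytic enzymes HK2 and LDHA and the stress gene NDRG1 were lower in n4/n5 than in nov and jan. NDRG1 had 9.57 and 10.8 scaled TPM in n4/n5, 14.2 and 11.4 in oct, 20 and 20 in nov, and 16.6 and 19.4 in jan. The glucose transporter gene SLC2A1 went the other way, with 78.9 and 86.9 scaled TPM in n4/n5, 64.5 and 59.2 in oct, 65.1 and 57.1 in nov, and 48.8 and 54.4 in jan, and was called higher in n4/n5 than in nov and jan. The list as a whole thus had members in both directions, 3 higher and 7 lower in n4/n5 against nov (2.84% and 4.93% of all genes), 1 higher and 7 lower against jan (3.06% and 2.74%), and 0 called against oct by limma. Without n4/n5 replicate 5 the F test called 1 member, and it called 5 when any one of n4/n5 replicate 4, oct replicate 1, nov replicate 1 and the jan libraries was left out.

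The NRF2 antioxidant list had 5 of 22 tested members called by the F test (22.7%, against 5.53% of all genes), with 3 lower in n4/n5 against nov (4.93% of all genes) and 6 against jan (2.74%), and 0 higher. TXNRD1, thioredoxin reductase, was lower in the n4/n5 and oct libraries than in those of nov and jan. Limma did not call it for oct against nov or jan. It had 114 and 108 scaled TPM in n4/n5, 130 and 141 in oct, 210 and 188 in nov, and 186 and 200 in jan, and differed by -0.83 and -0.79 (each ± 0.09 SE) in n4/n5 against nov and jan. GCLM, a subunit of the enzyme that starts glutathione synthesis, and the cystine transporter gene SLC7A11 were lower in n4/n5 than in nov and jan, by -0.49 and -0.53 and by -0.60 and -0.70. The stress factor ATF3 of the unfolded protein response list was lower too, by -0.96 and -0.72, and that list had 5 of 29 members called by the F test (17.2%). Its members went both ways against nov, with 2 higher and 5 lower in n4/n5 (2.84% and 4.93% of all genes). Against jan 0 were higher and 4 lower (3.06% and 2.74%), and against oct 0 were called. Without n4/n5 replicate 5 the F test called 1 NRF2 member and 2 of the unfolded protein response list. Without jan replicate 1 it called 1 and 3, and without jan replicate 2 it called 3 NRF2 members.

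In the collagens and laminins list 5 of 16 tested members were called by the F test (31.2%, against 5.53% of all genes). Against oct, 3 were higher in n4/n5 (0.624% of all genes) and 0 lower. Against jan, 2 were higher (3.06%) and 0 lower. Against nov, 4 were higher and 2 lower in n4/n5 (2.84% and 4.93%). Higher were COL6A1, by 0.84, COL18A1, COL6A2 and LAMB1, and among the lower was LAMB3, a laminin chain, by -0.43. COL4A1, a basement membrane chain, had 51.9 and 50 scaled TPM in n4/n5, 38.7 and 38.7 in oct, 44.7 and 43.3 in nov, and 41.3 and 36.6 in jan, and was higher in n4/n5 than in oct and jan. COL12A1, a fibril-associated chain, was higher in n4/n5 than in oct by 0.36. Without n4/n5 replicate 5 the F test called 1 member of the list, without n4/n5 replicate 4 or nov replicate 1 it called 2, and without nov replicate 2 or either jan library 3. Among markers of the ovarian line, KRT7 was higher in n4/n5 than in jan by 0.75, and GRB7, which neighbours ERBB2, was higher in n4/n5 than in nov and jan by 0.92 and 0.88. Summed over that list of 12 genes, n4/n5 had 965 to 1030 scaled TPM, oct 760 to 873, nov 755 to 761 and jan 713 to 737. Most of this sum was ERBB2, at 547 and 612 in n4/n5 and 560 and 442 in oct. PAX8 went the other way against oct, with 21.9 and 28 in n4/n5 and 32.8 and 25.4 in oct, as did MSLN. The list had 8 tested members above 0 and 2 below against oct, and 7 above and 3 below against each of nov and jan. The F test called 4 of its 10 tested members (40%), 0 without n4/n5 replicate 5, 1 without n4/n5 replicate 4 and 2 without either jan library.

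Proliferation genes showed a wide spread within sets. In the G2/M and mitosis list 0 of 26 tested members were called by the F test or in any pair by limma, and 0 had an adjusted F-test p under 0.286. TOP2A, the topoisomerase of dividing cells, had 77.4 and 47.9 scaled TPM in n4/n5, 33.5 and 55.4 in oct, 78.3 and 73.7 in nov, and 85.6 and 58.1 in jan. Library medians of the list, relative to the mean of 8, were 0.25 and -0.34 in n4/n5, -0.70 and -0.04 in oct, 0.32 and 0.19 in nov, and 0.34 and -0.06 in jan. The spread within n4/n5 and within oct was thus as wide as that between many sets. The mean of all 26 members was lower in oct than in each other set, though, with oct replicate 1 the lowest library by the median. Median differences were 0.36 for n4/n5 minus oct, -0.63 for oct minus nov and -0.48 for oct minus jan. The G1/S and DNA replication list had 0 of 28 called and the nuclear respiratory chain list 0 of 34 by the F test. The cytosolic ribosomal protein list had 3 of 77 called by the F test, a share of 3.9%, under the 5.53% of all genes.

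The 5 abundant protein-coding genes of smallest spread set the other end of the scale. ZNF274, a zinc-finger repressor, ranged over the 8 libraries between 54.1 and 59.6 scaled TPM, SERPINB6 between 51.6 and 57, and CNOT8, of a deadenylase complex, between 59.5 and 65.2. The RNA helicase gene DDX17 ranged between 120 and 131 and the proteasome gene PSMA3 between 68.7 and 76.4. They were chosen for their small spread, so the ranges are a description. The genes targeted elsewhere in the study were not called by the F test in the mock sets. RBFOX2 had an adjusted p of 0.24, HNRNPC 0.638, HNRNPM 0.335 and SRSF1 0.535. RBFOX2, the splicing regulator whose control set is n4/n5, had 17.7 and 16.2 scaled TPM in n4/n5, 17.5 and 18.8 in oct, 20.3 and 20 in nov, and 18.6 and 17.7 in jan.

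After median-ratio scaling, snoRNAs had a larger spread between mock libraries than messenger RNAs. The median SD of log2 values over the 8 libraries was 0.59 for the 286 tested C/D box snoRNAs and 0.53 for the 150 H/ACA snoRNAs, against 0.14 for 11161 protein-coding genes. Histone messenger RNAs, at 0.46 over 71 genes, were nearer to the snoRNAs, and 7SL genes had 0.29. The scaling factors follow the median gene, so the small spread of protein-coding genes is partly set by the scaling. Class totals were compared by summing scaled TPM. Of 24 classes 0 passed an exact permutation test of the 4 sets after adjustment over classes, and 3 had an unadjusted p under 0.05. With a smallest p of 0.00952, at least 5 classes would have to reach it for any to pass. The 3 were U6 snRNA at an exact permutation p of 0.0381, the Cajal body RNAs at 0.0476 and 5.8S ribosomal RNA at 0.0381. The last class rests on the pseudogene RNA5-8SP6 alone among tested genes. Without nov replicate 2, 6 classes passed the exact permutation test, U6, U7, C/D box, H/ACA, vault and RNase P/MRP, each at an adjusted p of 0.0381. The nov set then had a single library, taken to vary like the others.

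**Figure D4:**
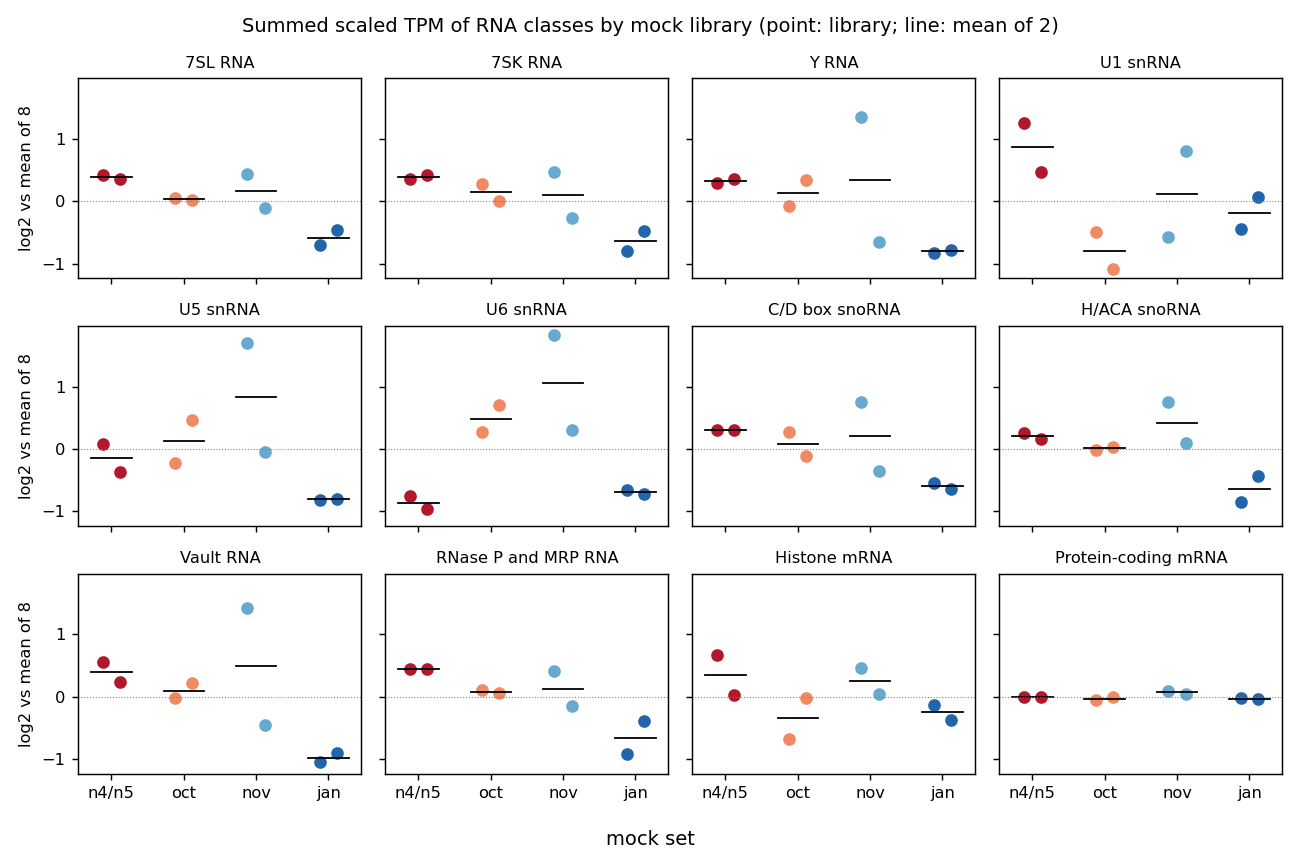
Summed scaled TPM of 12 RNA classes in the mock libraries, as log2 relative to the mean of the 8 libraries. Points are libraries, black lines the mean of 2, and each panel shows a class over the 4 sets. The nov libraries are far apart for Y RNA, U5, U6 and vault RNA. Protein-coding mRNA has the narrowest range, which is partly set by the median-ratio scaling.

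U6 had the widest range of the spliceosomal RNAs, 6.93-fold between libraries. Its summed level was 11300 and 9744 scaled TPM in n4/n5, 22940 and 30940 in oct, 67540 and 23510 in nov, and 12100 and 11620 in jan. The n4/n5 and jan libraries lay under all oct and nov libraries. As shares of the deposited TPM, U6 took 0.928% and 0.871% in n4/n5, 2.33% and 3.03% in oct, 4.49% and 2.46% in nov, and 1.71% and 1.53% in jan. The many gene copies of U6 share sequence, and how the authors split reads between them is not given in the sources used here, so values of single copies are uncertain and are not reported.

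Single U1 copies differed widely within sets. The copy RNVU1-9 had 70390 and 5988 scaled TPM in n4/n5, 9318 and 724 in oct, 3591 and 56190 in nov, and 17820 and 23690 in jan, and of 38 tested U1 genes 0 were called by the F test. The class total was steadier, with 98190 and 57070 in n4/n5, 29220 and 19260 in oct, 27580 and 71600 in nov, and 30150 and 42880 in jan. The 7SL RNA of the signal recognition particle, the small RNA class of largest total, had 273400 and 261900 scaled TPM in n4/n5, 212800 and 206900 in oct, 277800 and 189900 in nov, and 126300 and 148400 in jan. Both jan libraries were the lowest, but the exact permutation p was 0.0857 before adjustment. After scaling, the protein-coding total moved least, at most 1.11-fold between libraries. The scaling factors follow the median gene, so a steady total of this large class is partly set by the scaling. As a share of the deposited TPM, protein-coding genes took between 12.8% in nov replicate 1 and 25% in jan replicate 1.

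Of the RNA classes, the H/ACA snoRNAs had the highest share of called members. By the F test 40 of 150 were called (26.7%, against 5.53% of all genes), and in 24 of the 40 jan was the farthest set and lay below the others. Between n4/n5 and jan 40 were higher and 1 lower in n4/n5 (3.06% of all genes higher), with a median difference of 0.59. Between nov and jan 10 of the 45 called genes were H/ACA snoRNAs, all higher in nov, where 0.118% of all genes were called higher. SNORA23 had 576 and 445 scaled TPM in n4/n5, 337 and 353 in oct, 859 and 502 in nov, and 149 and 239 in jan. Its nov minus jan difference was 1.79 ± 0.33 (SE, limma adjusted p = 0.0428).

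These counts depend on scaling and on single libraries. On the TPM as deposited, H/ACA snoRNAs took 5.47% and 5.6% in n4/n5, 5.63% and 5.57% in oct, 6.25% and 6.2% in nov, and 4.35% and 5.44% in jan. The limma calls between n4/n5 and jan were then 26 higher and 23 lower. Over all 16994 genes limma then called 10138 for this pair, and 1.27% of these calls were higher in n4/n5. The F test called 6 of the class without n4/n5 replicate 5, 10 without jan replicate 1, 22 without jan replicate 2 and 27 without n4/n5 replicate 4, against 76 without nov replicate 2. On the 8 mock libraries alone it called 1. The 40 higher in n4/n5 than in jan became 16 without n4/n5 replicate 4, 5 without n4/n5 replicate 5, 1 without jan replicate 1 and 20 without jan replicate 2. The 10 calls between nov and jan became 0 without nov replicate 1 or either jan library, 2 without any one library of n4/n5 or oct, and 80 without nov replicate 2. Relative to the mean of 8 libraries the median H/ACA snoRNA was at 0.72 in nov replicate 1 and 0.00 in nov replicate 2.

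Single H/ACA snoRNAs differed from each other in their order of sets. The sequences of 4 H/ACA snoRNAs that differed between sets in different ways are shown, from GENCODE, with the ACA box near the 3′ end in capitals.
SNORA11: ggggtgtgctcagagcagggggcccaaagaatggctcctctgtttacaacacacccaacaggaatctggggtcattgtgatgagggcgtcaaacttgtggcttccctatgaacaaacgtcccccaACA
SNORA50: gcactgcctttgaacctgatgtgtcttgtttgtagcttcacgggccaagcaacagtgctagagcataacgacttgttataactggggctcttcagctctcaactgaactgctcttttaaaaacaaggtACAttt
SNORA69: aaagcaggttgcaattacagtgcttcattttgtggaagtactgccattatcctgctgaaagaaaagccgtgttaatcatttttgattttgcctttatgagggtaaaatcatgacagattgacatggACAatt
SNORA56: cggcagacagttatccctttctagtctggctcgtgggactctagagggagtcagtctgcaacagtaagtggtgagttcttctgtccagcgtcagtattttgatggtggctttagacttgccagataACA
SNORA11 is a symbol of 2 genes in the table, and the one shown, ENSG00000221716, lies on chromosome X. It had 92.9 and 104.6 scaled TPM in n4/n5, 36.2 and 25 in oct, 69.2 and 26.7 in nov, and 17.1 and 19.7 in jan. It was higher in n4/n5 in all 3 pairs, by 1.68, 1.17 and 2.36. SNORA50 was lower in n4/n5 than in oct and nov, with 50.5 and 31.6 scaled TPM in n4/n5, 112 and 147 in oct, 266 and 142 in nov, and 63.5 and 73.8 in jan. SNORA69, from RPL39, had 0.724 scaled TPM in n4 and was listed at 0 in n5, against 5.69 and 7.5 in oct, 14.6 and 9.45 in nov, and 3.58 and 3.84 in jan. SNORA56, from DKC1, had 20.7 and 21.3 scaled TPM in n4/n5, 45 and 45.4 in oct, 119 and 64.5 in nov, and 19.5 and 23.1 in jan. Its n4/n5 and jan libraries overlapped, and it was higher in nov than in jan by 2.00.

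Among the 188 genes called between n4/n5 and oct, the largest difference was that of a C/D box snoRNA, SNORD14B. It had 90.1 and 72.1 scaled TPM in n4/n5, 493 and 610 in oct, 1358 and 814 in nov, and 252 and 412 in jan. The n4/n5 minus oct, nov and jan differences were -2.75, -3.69 and -1.99 (each ± 0.35 SE), with limma adjusted p of 0.00127, 7.34e-05 and 0.00583. SNORD14C and SNORD14D, copies of the same family from introns of HSPA8, were far more abundant and were not called by the F test, with adjusted p of 0.66 and 0.57. SNORD14C had 14000 and 15210 scaled TPM in n4/n5, 15130 and 7111 in oct, 12410 and 11960 in nov, and 9402 and 9229 in jan. The 3 sequences are set side by side because the copies differ in letters and not only in place, with the C box (TGATGA) and the D box near the 3′ end in capitals.
SNORD14B: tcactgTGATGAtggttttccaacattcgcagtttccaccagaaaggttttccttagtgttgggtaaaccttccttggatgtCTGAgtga
SNORD14C: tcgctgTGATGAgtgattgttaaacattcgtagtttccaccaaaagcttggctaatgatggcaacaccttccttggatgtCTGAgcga
SNORD14D: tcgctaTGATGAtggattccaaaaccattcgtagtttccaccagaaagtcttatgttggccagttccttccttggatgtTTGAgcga
The transcripts are 90, 88 and 87 bases long in this annotation. C/D box snoRNAs as a class had 12 of 286 called by the F test, or 4.2%, under the 5.53% of all genes, and 19 higher and 1 lower in n4/n5 against jan, where 3.06% of all genes were higher and 2.74% lower. The F test called 68 without nov replicate 2, 47 without nov replicate 1, 6 without oct replicate 1 or jan replicate 2, 4 without n4/n5 replicate 4, and 2 without n4/n5 replicate 5 or jan replicate 1. The 19 became 54 and 53 without nov replicate 1 and nov replicate 2, and 8, 3, 0 and 4 without n4/n5 replicate 4, n4/n5 replicate 5, jan replicate 1 and jan replicate 2.

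Host genes of snoRNAs had 6 of 19 tested members called by the F test (31.6%, against 5.53% of all genes). SNHG7 had 73.6 and 76.2 scaled TPM in n4/n5, 65.2 and 74.8 in oct, 124 and 66.5 in nov, and 37.1 and 47.3 in jan, and was higher in nov than in jan by 1.10 ± 0.21 (SE, limma adjusted p = 0.0453). SNHG5 was lower in n4/n5 than in oct and nov, by -0.63 and -0.80. The F test called 0 of the list without n4/n5 replicate 5, 2 without n4/n5 replicate 4 or jan replicate 1, 3 without oct replicate 1 or jan replicate 2, and 9 without nov replicate 2. Reads of an intronic snoRNA and of its host overlap in position, and how the authors assigned them is not given in the sources used here.

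The same sets also hold siRNA libraries, so the set differences were read again there. In the comparisons of mock sets these libraries entered only the filter, the scaling factors and the shared estimate of the spread, not the differences. The set is confounded with the siRNA, and for n4/n5 against oct also with the protein depleted, so set and depletion cannot be told apart in these libraries. Mock and siRNA libraries of a set that share a replicate number also deviated together, with correlations over genes between 0.117 and 0.431 for the 8 siRNA groups, so the siRNA libraries are no independent repeat of the mock sets and the shares below are a description. RBFOX2 siRNA libraries (4) minus the hnRNPC and hnRNPM siRNA_1 libraries of oct (6) gave the same sign as mock n4/n5 minus oct in 184 of the 188 mock-called genes, or 97.9%, against 64.9% of all tested genes. Of the 188, 166 were called in the same direction, where 27.3% of all genes were called, 15.7% higher and 11.7% lower. The 4 of opposite sign were CASC15, COL4A1, PYURF and SPATA7, named after their values were seen, and SPATA7 was called in both with opposite sign. For nov minus jan, read in SRSF1 siRNA_1 minus SRSF1 siRNA_3, 43 of 45 genes had the same sign (95.6%, against 65.4% of all) and 24 were called the same way, where 1.62% of all genes were called, 0.947% higher and 0.677% lower. For oct minus jan, read in hnRNPM siRNA_1 minus hnRNPM siRNA_3, 3 of 3 had the same sign, against 71% of all genes, and 3 were called, where 4.3% of all genes were called, 1.19% higher and 3.11% lower.

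**Figure D5:**
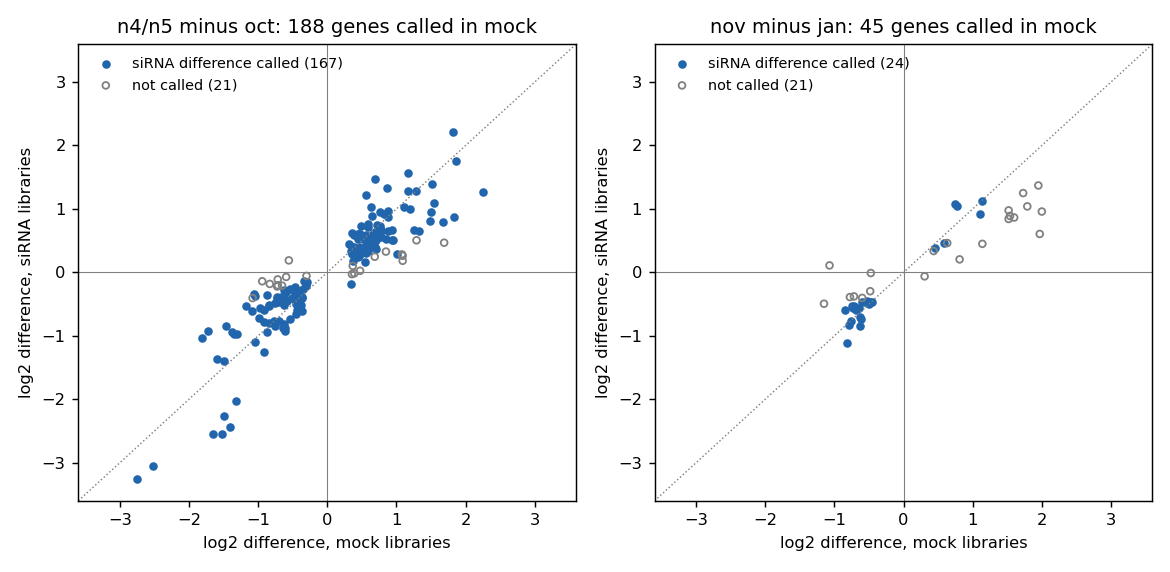
Set differences of the genes called between mock sets (horizontal, log2) against the same set difference in siRNA libraries (vertical, log2), for n4/n5 minus oct (188 genes) and nov minus jan (45 genes). Filled points were also called in the siRNA libraries, and the dotted line marks equal values; 184 and 43 genes have the same sign in both.

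Levels of 5 named genes in the siRNA libraries are given as ranges. SNORD14B ranged between 48.8 and 91.2 scaled TPM in the 4 RBFOX2 siRNA libraries, between 478 and 856 in the 6 of oct, 623 and 1008 in the 2 of nov, and between 272 and 410 in the 4 of jan. HLA-DMB ranged between 12.3 and 14 in the RBFOX2 siRNA libraries and between 2.54 and 4.86 in those of oct, and SOD2 between 16.3 and 21.2 and between 36.6 and 79.4. RIMS4 ranged between 19 and 24.7 scaled TPM in the RBFOX2 siRNA libraries and between 8.39 and 11 in those of oct. Between the siRNA libraries of n4/n5 and oct none of these 4 ranges overlapped. These genes were named for their differences between mock sets, and the share of all genes without overlap was not computed, so this is a description. TPM2 was at 16.7 scaled TPM in both SRSF1 siRNA_1 libraries of nov and between 33.4 and 39.2 in the siRNA libraries of jan. Within the NF-kB and inflammatory list, the RBFOX2 siRNA libraries had 10 members lower (11.7% of all genes) and 2 higher (15.7%) than those of oct. The difference was below 0 in 15 of the 20 members there, and in 19 for mock n4/n5 minus oct. Whether the list differed between mock and siRNA libraries was not tested.

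GC content moved with the libraries, within sets as well as between them. The Spearman correlation across 11270 protein-coding genes between GC content and each library's deviation from the mean was 0.0743 and 0.632 in n4/n5, 0.562 and -0.212 in oct, -0.243 and -0.467 in nov, and -0.525 and -0.211 in jan. It is across genes, which are not independent replicates. For the set differences it was 0.212 for n4/n5 minus oct, 0.522 for n4/n5 minus nov and 0.537 for n4/n5 minus jan. It was 0.493 for both oct minus nov and oct minus jan, pairs with 0 and 3 called genes, and -0.0122 for nov minus jan. With transcript length the correlation was -0.151, -0.16 and -0.357 for n4/n5 minus oct, nov and jan. For oct minus nov, oct minus jan and nov minus jan it was -0.0858, -0.313 and -0.28. No correction for length was made. With a correction for GC content in each library the F test called 1089 genes, and of the NF-kB and inflammatory list 12 were called, with 9 lower in n4/n5 than in oct. Of the H/ACA snoRNAs 45 were then called by the F test, 38 were higher and 0 lower in n4/n5 than in jan, and 23 were higher in nov than in jan. For the remaining gene groups the part of GC content in the differences was not tested.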

How the data were processed

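RNA of 24 SKOV3.ip1 libraries, 8 of them mock, was measured by TGIRT-seq; RNA was fragmented at 94 °C for 7 min and libraries were amplified for 12 PCR cycles, per the labels' protocols. The authors deposited TPM for 57773 genes. Per the submitters' processing notes, the tools were TopHat2 2.0.9 with Bowtie2 2.1.0.0, SAMtools 0.1.19.0, Trimmomatic 0.38 and FastQC 0.10.1, and the build was hg19. The counting tool, annotation, use of strand and depth are not given in the sources used here, so overlapping, antisense and near-identical genes are uncertain. No 2 of the libraries held identical values (0 of 276 pairs).

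TPM were divided by median-ratio factors (0.664 to 1.41, from 22727 genes above 0 in all libraries) and analysed as log2 of the value plus 1. Genes that reached 1 TPM in 2 or more of the 24 libraries were fitted in limma 3.58.1 (R 4.3.3) with 12 groups, empirical Bayes with trend, and 12 residual plus 3.04 prior degrees of freedom; p-values were adjusted by Benjamini-Hochberg over all 16994 genes and called under 0.05. Distances and class totals were tested by exact permutation over all splits of the mock libraries into pairs, in Python with numpy. RNA classes were assigned by symbol, and GC content came from GENCODE 29 (95.7% of tested genes matched), whose build differs from the table's. Promoters came from RefSeq, GRCh38.p14.

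Named genes were, for each pair of sets, the 4 higher and 4 lower called genes of largest difference with a mean of at least 5 scaled TPM, non-overlapping libraries and no clone-based symbol. They also include the 12 of smallest F-test p, up to 3 called members of each list, 2 members of highest mean of each RNA class, the 5 protein-coding genes of smallest spread with a mean of at least 50, and the 4 target genes. Some items named by this rule are not reported here. Further members of the lists are given as examples and were chosen after their values were seen. Members, lists and rule were chosen with earlier results of these data known. Of 27 lists, those not in the report are given in the closing section.

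On simulated data of the same design with 100 genes changed at each size among 16994, the n4/n5 minus oct comparison recovered 45% at a log2 change of 0.5 and 91% at 1, with 6 unchanged genes called; the F test recovered 46% and 89%. The results were recomputed on deposited values, after quantile normalisation, with factors from the mock libraries alone or a common total over other RNAs than the small structured ones, with 0.1 as pseudocount, with the low-value filter dropped or raised to 5 TPM, on the 8 mock libraries alone, without trend, with robust empirical Bayes, with a GC correction, with replicate number as a block over all sets or, added after seeing the data, within each set (limma with an estimated correlation), and without each mock library in turn.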

Additional observations from a re-analysis of the deposited data

How the results depend on the processing

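Counts are given for the F test, then the pairs n4/n5 minus oct, nov and jan, then oct minus nov, oct minus jan and nov minus jan, where they moved. As deposited they were 9756, 70, 153, 10138, 1, 4089 and 11734, with shares of higher calls in the pairs of 22.9%, 59.5%, 1.27%, 100%, 0.538% and 0.827%, against 56.4%, 36.6% and 52.7% for the n4/n5 pairs, 33.3% for oct minus jan and 44.4% for nov minus jan after scaling; the median gene moved by up to -0.59. Quantile normalisation gave 7, 5 and 26 for the pairs without n4/n5 (85.7%, 20% and 19.2% higher), and the common total over genes outside small structured RNAs 15 for oct minus nov (93.3% higher) and 113 for nov minus jan (18.6% higher). The unfiltered table gave 574 by the F test, 501 for n4/n5 minus jan, 27 for oct minus nov and 28 for oct minus jan. For oct minus jan a pseudocount of 0.1 gave 0 and the 5 TPM filter 6. The 8 mock libraries alone gave 24, 8, 86, 52, 0, 0 and 0 in the order above. Without trend, oct minus nov had 6 calls. The GC correction gave 21, 33 and 149 for the pairs without n4/n5. Of the 939 genes called by the F test 832 were also called on deposited values and 748 after the GC correction.

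Leaving out each library gave 181 to 1245 calls by the F test, 54 to 192, 211 to 1552 and 102 to 1232 for the n4/n5 pairs against oct, nov and jan, and 0 to 8, 0 to 20 and 1 to 459 for oct minus nov, oct minus jan and nov minus jan. The n4/n5 minus oct count was 57 and 54 without n4/n5 replicate 4 and 5 and 82 and 65 without oct replicate 1 and 3; n4/n5 minus nov was 211 without n4/n5 replicate 5, 838 without nov replicate 1 and 458 without nov replicate 2; n4/n5 minus jan was 115 without n4/n5 replicate 5, 102 without jan replicate 1 and 239 without jan replicate 2. Nov minus jan was 1 without nov replicate 1 or either jan library and 459 without nov replicate 2. The mean distance within sets ranged between 0.136 and 0.156, and the classes passed between 0 and 6. With the replicate block, which could be fitted only for sets sharing a number, oct minus nov had 3173 calls, oct minus jan 2121 and nov minus jan 276. The n1 minus n2 differences of nov and jan correlated at 0.0173 over genes, so the numbers are not shown to pair the mock sets with each other. Within a set, same-numbered mock and siRNA libraries deviated together (0.117 to 0.431). A replicate block within each set, added after seeing the data, with an estimated correlation of 0.287, gave 1156 calls by the F test, 892 of them shared with the 939, and 10, 0 and 70 for oct minus nov, oct minus jan and nov minus jan. The n4/n5 pairs share no number with the others, and no paired analysis was possible there.

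Of 3070 recomputed values for 154 single genes and class members, 2651 kept their side of the threshold and direction, 380 no longer passed, 39 newly passed and 0 reversed; 86 of the 380 came from the 8 mock libraries alone and 62 from leaving out n4/n5 replicate 5. The cause of these changes was not tested. TPM keep no depth, so how far counting error limits weakly expressed genes is unknown.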

Other observations

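The remaining lists are set beside the 5.53% of all genes that limma called by the F test. Called were 5 of 18 epithelial genes (27.8%), 3 of 13 YAP and matricellular (23.1%), 4 of 19 heat shock (21.1%), 2 of 10 mesenchymal (20%) and 4 of 21 interferon-stimulated genes (19%). These shares rest on few libraries. Without n4/n5 replicate 5 the counts were 0 epithelial, 2 YAP, 0 heat shock, 1 mesenchymal and 0 interferon-stimulated. Over the 7 other libraries left out in turn they were 2 to 5 epithelial, 2 to 4 YAP, 1 to 3 heat shock, 1 to 2 mesenchymal and 0 to 3 interferon-stimulated, the 0 without nov replicate 1 or either jan library. The low epithelial count of 2 came without n4/n5 replicate 4 or jan replicate 2, the heat shock count of 1 without n4/n5 replicate 4 or either jan library, and the mesenchymal count of 1 without nov replicate 1. Called in the other lists were 1 of 8 metallothionein and zinc transport genes (12.5%), 2 of 16 abundant long non-coding RNAs (12.5%), 2 of 26 immediate early (7.69%), 2 of 29 lysosome (6.9%), 2 of 35 splicing (5.71%), 1 of 18 p53 (5.56%) and 1 of 24 cholesterol genes (4.17%). Of the leukocyte and fibroblast markers 0 passed the filter on low values, and 1 endothelial marker passed it and was not called. TM7SF2, a sterol reductase, had 9.26 and 9.85 scaled TPM in n4/n5, 7.66 and 7.77 in oct, 5.37 and 4.85 in nov, and 5.03 and 4.97 in jan. CTSH, a lysosomal cathepsin, had 28.1 and 32.4 in n4/n5, 16.5 and 14.2 in oct, 18.9 and 15.8 in nov, and 16.1 and 16.2 in jan. NPC1, which exports cholesterol from lysosomes, was lower in n4/n5 than in oct, nov and jan, by -0.37, -0.34 and -0.54. The imprinted long non-coding RNA H19 had 1.93 and 1.61 scaled TPM in n4/n5, 0.835 and 0.81 in oct, 0.454 and 0.148 in nov, and 0.583 and 0.3 in jan.

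Other RNAs differed within the nov set. RNY5, a Y RNA, had 3455 and 3595 scaled TPM in n4/n5, 8436 and 13630 in oct, 28150 and 4757 in nov, and 4113 and 3727 in jan. The vault RNA VTRNA1-2 had 751 and 707 in n4/n5, 1150 and 1437 in oct, 3393 and 963 in nov, and 479 and 662 in jan. Replication-dependent histone messenger RNAs, whose levels peak in S phase, summed to 10490 and 6753 in n4/n5, 4131 and 6532 in oct, 9045 and 6801 in nov, and 6046 and 5104 in jan. The n4/n5 and nov libraries lay above all libraries of oct and jan. The exact permutation p over the sets was 0.295 before adjustment.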
